A study of Homo sapiens with 6 samples.

Results

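The secreted WNT antagonists examined here are 8 genes: SFRP1, SFRP2, SFRP4, SFRP5, WIF1, DKK1, DKK2 and DKK3. Their DNA methylation was taken from a table of regions measured by reduced representation bisulfite sequencing (RRBS), in which DNA is cut with MspI at CCGG, treated with bisulfite so that unmethylated cytosines read as thymines, and sequenced mainly in CpG-rich sequence. A region counted toward a gene when it overlapped the gene's RefSeq span on hg38 or lay within 10 kb of it. Of the 35130 regions in the authors' deposited table, 12 did so, at 7 of the 8 genes, and WIF1 had none. Both groups were M07e, an acute megakaryoblastic leukemia cell line with the CBFA2T3-GLIS2 fusion, grown with GM-CSF. RRBS does not measure expression, so the cell type was not checked against marker genes. The control was the wild-type line (3 libraries) and the other group carried a CRISPR knockout of DNMT3B, an enzyme that places new methyl groups on DNA (3 libraries). The labels name no clone and do not say whether libraries of a group came from separate cultures.

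WNT proteins are secreted signals that bind a frizzled receptor together with the co-receptor LRP5 or LRP6 and so stabilise beta-catenin, which acts with TCF and LEF factors on target genes. The members act outside the cell: SFRP proteins and WIF1 bind WNT ligands, and DKK1 and DKK2 bind the co-receptors, while DKK3 is a more distant relative whose action on WNT signalling is less settled. Promoters of several of these genes are well known to be methylated in leukemias and carcinomas.

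The table holds 1 mean level per group and region, with no value for single libraries and no read coverage, so no level below has a replicate error and the depth is unknown. All levels, differences, p-values and q-values are the authors', from that deposited table, except p-values adjusted here by Benjamini-Hochberg, which are named as such. One group column is named M07e_WT. The other is named M07e_3883, a name no label uses, and is read as the knockout since the labels give only 1 genotype beside WT, so all directions depend on it. A region is called here if it has an authors' q under 0.01 and levels at least 25 percentage points apart. The authors' p-values can lie far below 0.1, the smallest two-sided exact rank p that 3 libraries against 3 allow, so they do not measure the spread between libraries. The deposited difference is nowhere smaller than 0.101 points in size, although 41 regions have equal group means. At those regions it does not follow from the 2 group columns. Shares and medians of differences over all regions use the deposited difference. A gene without a region is not shown to be unchanged.

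The sites of a region proved to be single cytosines, counted separately on each strand. All of the 2508 regions lying inside a RefSeq promoter window began and ended on a CpG cytosine when the deposited positions were counted from 0 (100%), against 51.1% of first sites when counted from 1. In 75.9% of those regions the table listed more sites than the sequence has CpG dinucleotides, and in none (0%) more than it has CpG cytosines on both strands. Positions are therefore printed below 1-based, as those of the first and last cytosine.

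RefSeq promoter windows (GRCh38.p14, 250 bases before to 50 after the start) were given for 5 members, SFRP2, SFRP4, SFRP5, WIF1 and DKK1. The 2 that wholly contain a measured region are shown, because they place the methylation values on the sequence. Capitals mark the measured region, and each window is written along its gene, 5′ to 3′. The SFRP5 window is chr10:97771950-97772249, minus strand, and the DKK1 window is chr10:52314031-52314330, plus strand.
SFRP5: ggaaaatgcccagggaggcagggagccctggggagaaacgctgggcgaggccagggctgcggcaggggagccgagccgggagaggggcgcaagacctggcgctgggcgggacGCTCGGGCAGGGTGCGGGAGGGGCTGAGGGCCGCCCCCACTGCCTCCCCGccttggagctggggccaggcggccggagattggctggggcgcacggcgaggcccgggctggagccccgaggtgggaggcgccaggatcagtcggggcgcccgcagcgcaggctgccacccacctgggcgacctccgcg
DKK1: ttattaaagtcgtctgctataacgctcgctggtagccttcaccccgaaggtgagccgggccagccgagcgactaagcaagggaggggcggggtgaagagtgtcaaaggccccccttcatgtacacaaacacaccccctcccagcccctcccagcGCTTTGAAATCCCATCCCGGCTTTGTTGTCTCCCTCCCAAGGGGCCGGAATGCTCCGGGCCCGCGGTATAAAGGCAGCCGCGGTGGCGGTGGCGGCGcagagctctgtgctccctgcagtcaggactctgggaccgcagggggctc

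The DKK1 region takes in the last 96 bases before the start site and the first annotated base. It touches 11 CpG dinucleotides, the first of them cut by the region's border, so that 21 CpG cytosines of both strands lie inside, of which the table counts 13 as sites. It also contains 3 of the window's 4 CCGG sequences, which begin 80, 52 and 42 bases before the start. A search of both strands for TATAAA, the TATA box, and for the usual TCF and LEF core, CTTTG followed by AA, AT, TA or TT, found TATAAA beginning 30 bases before the start, CTTTGAA beginning 95 bases before it and CTTTGTT beginning 76 bases before it, all inside the measured region. Of all 35116 promoter windows, 11.5% hold TATAAA and 13.8% hold 1 of the 4 TCF and LEF sequences. A match of letters is a description of the sequence and shows no binding.

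The SFRP5 region lies at bases 113 to 162 of its window, 89 bases before the start at its nearest. It touches 5 CpG dinucleotides, the first again cut by the border, and holds 9 CpG cytosines, of which 6 are sites in the table, and no CCGG (0) among its own bases, although the window has 3. SFRP5 has 28 CpG dinucleotides in its window, WIF1 29, SFRP4 23, DKK1 20 and SFRP2 15, where the median of all windows is 14. Each of the 5 windows holds CCGG (2 in SFRP2, 2 in SFRP4, 1 in WIF1), as do 63.1% of all windows. Regions of the table touched the windows of 3 of the 5 members, DKK1, SFRP5 and, by 5 bases, SFRP4. Of all windows 11.8% were touched, and of windows with CCGG 18.7%.

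The 12 regions held 103 sites over 710 bases, 5 to 13 sites each. Called regions numbered 2, against 6.74% of all regions called in either direction (2368 of 35130). With a q under 0.001, or with the Kolmogorov-Smirnov p adjusted by Benjamini-Hochberg over all regions at 0.01, no member region was called (0). Within the gene spans or 2 kb of them 1 was, at SFRP1. The shares of all regions called under the alternative q settings are not given here. SFRP1 had the 1 called higher in the knockout (4.57% of all regions) and SFRP2 the 1 called lower (2.17% of all regions). Levels of the 12 ran from 0% to 52.5% in the control (median 14.7%) and from 0% to 70.9% in the knockout (median 19.7%), beside medians of 7.59% and 30.9% over all regions. In the knockout 6 of the 12 were higher and 6 lower, with a median difference of 4.71 points. That median was 14.3 points within the gene spans and -0.43 points with a window of 50 kb, so its sign depends on the window. Over all regions 68.4% were higher and the median difference was 17.4 points. A control of exactly 0 was found at 26.1% of all regions and at 1 of the 12 (8.33%). Without regions with a mean of exactly 0 in either group, the median difference of the members stayed at 4.71 points. The part of such regions in the other medians was not tested. The 12 regions share genes and, within SFRP1, SFRP2 and SFRP4, short stretches of sequence, so they are not independent measurements. The members thus held differences of both signs, and no test of the list against other regions was made.

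**Figure D1:**
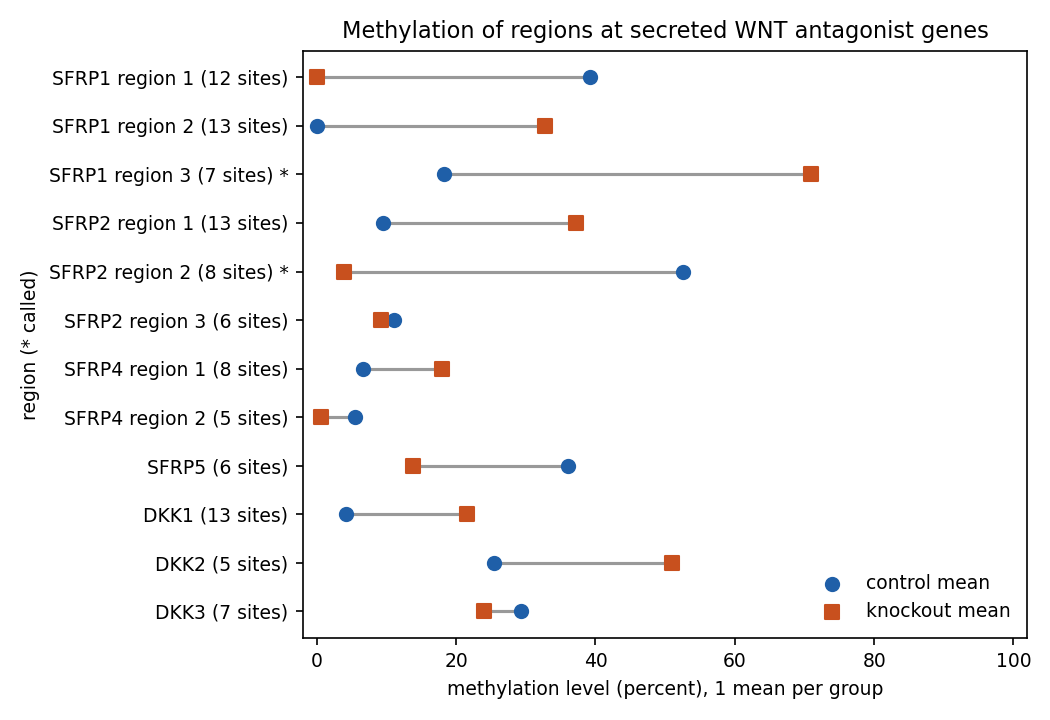
Methylation level in percent (x axis) of each of the 12 regions (y axis, with its number of sites; regions of a gene numbered by coordinate), with a blue circle for the control mean, an orange square for the knockout mean and a line joining them. The called regions, marked with an asterisk, are SFRP1 region 3 (18.3% to 70.9%) and SFRP2 region 2 (52.5% to 3.85%); there are no error bars because the table has 1 mean per group.

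SFRP1, which encodes a frizzled-related decoy for WNT ligands, had 3 regions within 666 bases, all inside the gene near its higher-coordinate end on chromosome 8 (span 41261962 to 41309473). The tables used here give no strand for this gene. The region nearest that end, chr8:41309171-41309188, had 7 sites and stood at 18.3% in control and 70.9% in knockout cells, 52.6 points higher (q = 0.00926). Of all regions 1.92% had a difference at least as high, and its q lay close to the threshold of 0.01. It is the member region with the highest level in either group.

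The other 2 SFRP1 regions were not called and pointed opposite ways. At chr8:41308740-41308816, 354 bases from the called region, 13 sites were at 0% in control and 32.8% in knockout cells. At chr8:41308523-41308547, a further 192 bases away, 12 sites were at 39.2% in control and 0% in knockout cells. At both regions the authors' q and 2-dimensional Kolmogorov-Smirnov p were exactly 1, while their Mann-Whitney p-values were 0.0113 and 0.000263. Such a pairing of a Kolmogorov-Smirnov p of 1 with a Mann-Whitney p under 0.05 occurred at 13.9% of all regions. By the authors' q neither region passed, at differences of 32.8 and -39.2 points.

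A mean of exactly 0 in 1 group only occurred at these 2 of the 12 regions and at 30.7% of all regions. Of all regions 7367 paired a control of 0 with a knockout mean of 25% to 33.3%, as SFRP1 region 2 does, and none of those (0) was called. Their median difference was 32.2 points, and 7365 of them had the same q as SFRP1 region 2. A missing call at such regions therefore does not show that the groups were alike. Such regions also count among all regions, from which the share called is taken. The sources used here do not give how libraries without coverage entered the means, and its part in these values was not tested.

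SFRP2, a second frizzled-related decoy, had 3 regions on chromosome 4, 1 inside the gene (span 153780591 to 153789083, minus strand) and 2 upstream of its start. The upstream region chr4:153791200-153791280, 2117 bases before the start, had 8 sites at 52.5% in control and 3.85% in knockout cells (difference -48.7 points, q = 0.00329). Of all regions 1.07% had a difference at least as low. It is the most methylated of the 12 regions in the control and the third lowest in the knockout.

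Only 16 bases farther upstream, chr4:153791297-153791338 had 6 sites at 11.0% in control and 9.16% in knockout cells (q = 1). The control level thus stepped from 52.5% to 11.0% between adjoining regions, while the knockout stood at 3.85% and 9.16%. Inside the gene, centred 583 bases after the start, chr4:153788461-153788539 had 13 sites at 9.46% in control and 37.2% in knockout cells, a difference of 27.7 points whose q of 0.201 missed the threshold. SFRP2 thus had its called loss upstream and a difference of the other sign, not called, in the gene.

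SFRP4 and SFRP5 encode further frizzled-related proteins, and neither had a called region. SFRP4 (chromosome 7, span 37905932 to 37916817, minus strand) had 2 regions 3 bases apart, just after its start. At chr7:37916717-37916760, centred 78.5 bases after the start, 8 sites were at 6.67% in control and 18.0% in knockout cells (q = 0.259). At chr7:37916764-37916772, 5 sites were at 5.48% in control and 0.533% in knockout cells (q = 1). All 4 of these means were under 20%, as were 65.8% of control means and 34.6% of knockout means over all regions. EPDR1, another gene, lies 3868 bases from the nearer of these regions.

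The SFRP5 region printed in capitals above (gene span 97766751 to 97771999, chromosome 10) was at 36.0% in control and 13.8% in knockout cells over its 6 sites. The difference of -22.3 points lay under the 25-point threshold, and q was 1 (Mann-Whitney p = 0.184 and Kolmogorov-Smirnov p = 0.491, both the authors'). Its control mean was the third highest of the 12.

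Among the DKK genes, DKK1 had the lowest q. The region before its start, chr10:52314185-52314281, was at 4.13% in control and 21.5% in knockout cells over 13 sites, 17.4 points higher (q = 0.00555). It passed the q threshold, as did 9.06% of all regions, but not the 25-point threshold. Its difference was close to the median of all regions, 17.4 points. PRKG1-AS1, a non-coding RNA gene on the minus strand, has its annotated start 57 bases from this region, on the side away from DKK1, so the region lies between the starts of these genes, which point away from each other.

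DKK2 and DKK3, for which the tables used here give no strand, had 1 region each. The DKK2 region, chr4:107036960-107037133, lies 647 bases beyond the higher-coordinate end of the gene (span 106921802 to 107036313) and had 5 sites over 174 bases at 25.4% in control and 50.9% in knockout cells (q = 0.953). It was the longest of the 12 regions and the one with the fewest sites per length, at 2.87 per 100 bases. The DKK3 region, chr11:12009273-12009286, lies inside the gene (span 11963036 to 12009745) near the same kind of end and had 7 sites at 29.4% in control and 24.1% in knockout cells (q = 1). The difference of 25.5 points at DKK2 was past the size threshold alone, and that at DKK3 was -5.30 points.

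**Figure D2:**
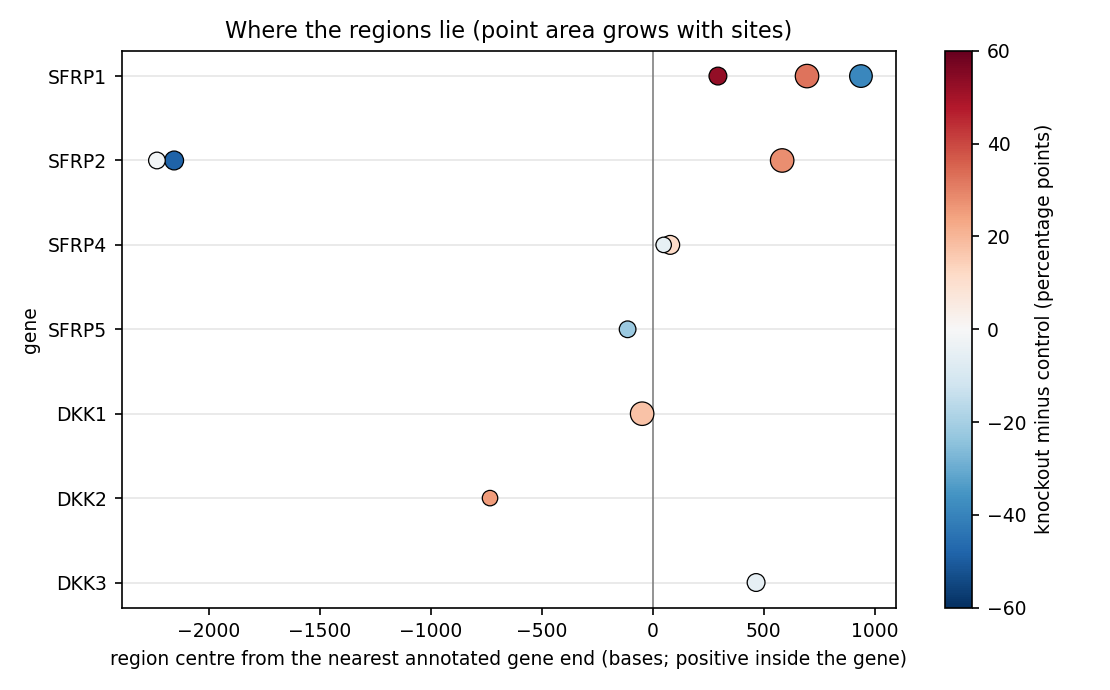
Distance in bases from the nearest annotated end of the gene to the centre of each region (x axis, positive inside the gene), by gene (y axis), coloured by knockout minus control in percentage points, with a larger point for more sites. Of the 12 points 10 lie within 1000 bases of a gene end; the other 2, upstream of SFRP2, include the called loss.

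WIF1, which encodes a secreted protein with its own WNT-binding domain, had no region within 10 kb of its span (chromosome 12, 65050626 to 65121305). The nearest region of the table was 48969 bases away, with 8 sites at 0.674% in control and 1.69% in knockout cells (q = 1). The WIF1 promoter window has the most CpG dinucleotides of the 5 given and 1 CCGG. With no region in reach, methylation of the WIF1 promoter was not analysed here, and why no region lay there was not tested.

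The regions lay mostly at the ends of their genes. At SFRP2, SFRP4, SFRP5 and DKK1, where the strand is known, the nearest end was the start. The share of all regions near a gene end is not given here. Of the 12, 8 touched the gene's span, 10 were centred within 1000 bases of an annotated end, and the farthest was 2214 bases out. The 8 regions touching a span had a median difference of 14.3 points, 5 higher and 3 lower, and the 4 outside had one of -12.1 points, 1 higher and 3 lower. With 4 regions outside, 2 of them at SFRP2, these medians are descriptions only.

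Neighbouring regions did not always share a direction. Among the members there were 4 neighbouring pairs up to 1000 bases apart (2 at SFRP1, 1 at SFRP2, 1 at SFRP4), and 2 of these pairs had differences of opposite sign. Of the 6548 such pairs among all regions 44.2% did. Opposite differences of at least 25 points on both sides were found in 1 member pair, at SFRP1, and in 10.2% of all pairs. The member pairs of opposite sign, at SFRP1 and SFRP4, held no called region. Each called region shared its sign with the other region of its pair (52.6 and 32.8 points at SFRP1, -48.7 and -1.87 points at SFRP2).

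**Figure D3:**
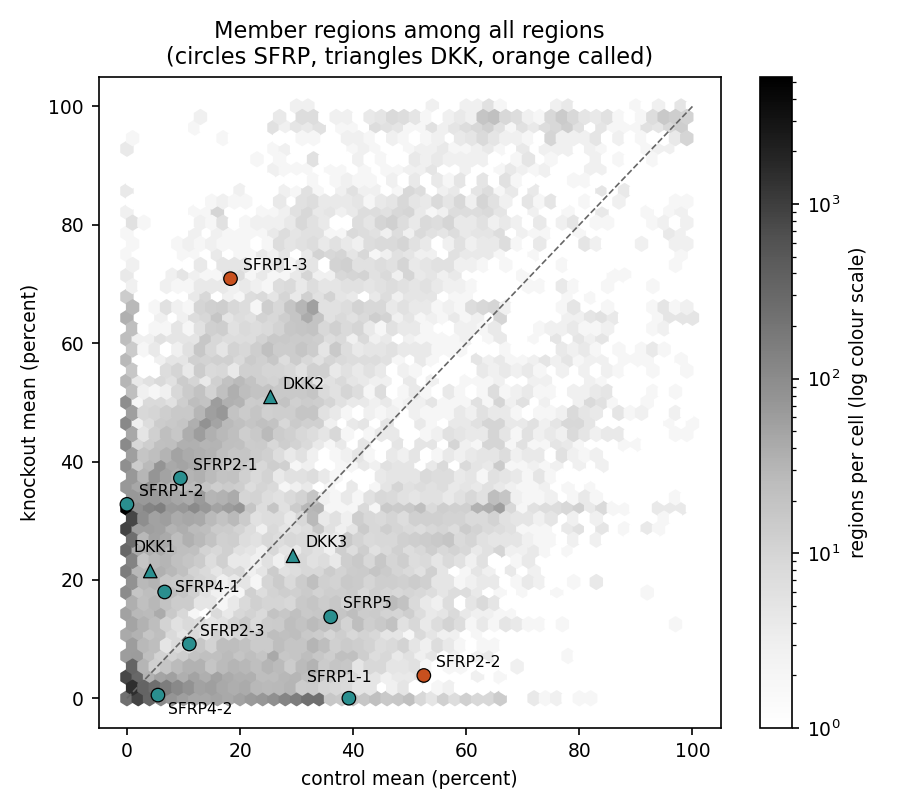
Control mean (x axis, percent) against knockout mean (y axis, percent) for all 35130 regions as grey cells on a log colour scale, with SFRP regions as circles and DKK regions as triangles (numbers after a hyphen are the region numbers within a gene), called ones in orange; the dashed line marks equal levels. Of the members, 6 lie above the line and 6 below it, and SFRP1 region 2 lies on the dense group of regions with a control of 0 and a knockout mean up to 33.3%.

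**Figure D4:**
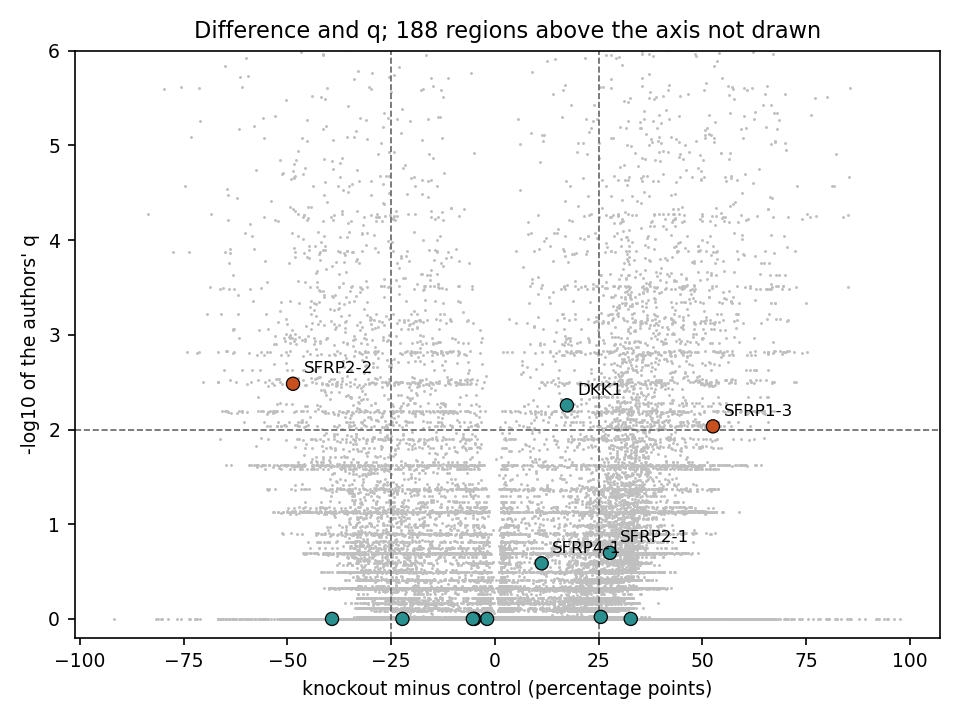
Knockout minus control in percentage points (x axis) against -log10 of the authors' q (y axis) for all regions in grey and the 12 member regions in colour (orange if called); dashed lines mark the thresholds of 25 points and q of 0.01, and 188 regions above the axis are not drawn. DKK1 passes the q line inside the 25-point lines, and 6 member regions lie at a q of exactly 1.

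The same call was read over other parts of the WNT pathway, by gene and with the same 10 kb reach. Of all 25152 genes with a region in reach, 14.9% had a called region, 10.8% one higher and 5.18% one lower in the knockout. Of the 7 measured antagonist genes 2 did, 1 in each direction. Of 9 measured further extracellular or membrane antagonists 4 did, 3 with a higher and 2 with a lower region. They include SOST, an LRP-binding inhibitor, at 20.6% in control and 84.7% in knockout cells (q = 0.000753). TRABD2B, a WNT-cleaving protease, had a called region at 90.5% and 27.6% (q = 0.000863) and another at 54.2% and 93.4% (q = 0.00831). ZNRF3, a ubiquitin ligase that removes frizzled receptors, stood at 8.55% and 48.8% (q = 0.000832).

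Of 18 measured WNT ligand genes 9 had a called region, 8 with a higher and 4 with a lower one. WNT1 and WNT10B were counted through the same higher and the same lower region. The called regions of the ligands were 8 higher and 3 lower. Among them a region 9595 bases from WNT8A went from 30.7% to 98.0%, one inside WNT5A from 31.3% to 98.4%, and one 926 bases from WNT3 from 49.8% to 1.10%. Of 20 receptor and co-receptor genes, 7 had a called region, and their 9 called regions were all higher in the knockout. At FZD8, a frizzled receptor gene, the level went from 29.8% to 80.7%, and at LGR5, an R-spondin receptor gene, from 28.2% to 68.4%. FZD3, another frizzled receptor gene, had one 421 bases away, from 28.7% to 70.8%.

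Of 4 measured agonist genes 1 did, RSPO4 (2.86% to 39.3%), and of 2 genes of ligand release none did (0). Of 13 intracellular inhibitors 5 did, 4 with a higher and 3 with a lower region. Among them were AXIN2 (24.2% to 74.2%), a scaffold of the complex that degrades beta-catenin, APC2 (74.8% to 26.6%) and SOX17 (30.5% to 95.3%). APC2 also had called higher regions (61.3% to 92.2% and 11.8% to 48.0%). SOX17 also had a called lower region (65.8% to 20%) and a further higher one (44.6% to 96.7%). Of 11 signal transducers 3 did, all 3 with a higher region: TCF7 (20.8% to 72.6%), TCF7L1 (3.04% to 47.8%) and DVL1 (2.17% to 37.2%). DVL1 also had a called lower region, 1694 bases from the gene (51.5% to 17.0%). Of 8 pathway target genes 5 did, 3 with a higher and 2 with a lower region, including the losses at JUN (50.6% to 0.190%) and SP5 (75.0% to 24.9%). LGR5, AXIN2 and NKD1 stand in 2 of these lists. The median difference was 2.58 points over the 75 regions of the ligands, 18.2 over the 57 of the receptors, 18.1 over the 26 of the further antagonists, 26.2 over the 74 of the intracellular inhibitors, 4.82 over the 31 of the signal transducers and 5.38 over the 30 of the targets, beside 4.71 over the 12 of the members and 17.4 over all regions. Regions with a control of exactly 0 were 8.33% of those of the members and 26.1% of all regions. The median of the members was the same without regions with a mean of exactly 0 in either group. The part of such regions in the other medians was not tested. The lists differ in regions per gene and were not tested against one another or against other genes.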

How the data were processed

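RRBS was carried out on 6 M07e libraries, 3 control and 3 DNMT3B knockout. Build hg38 and the tools Bismark, methylKit, HISAT2, Trimmomatic and FastQC appear in the submitters' processing notes, without roles or versions. The program that called the regions is not stated in the labels or the table. Per the file headers, the authors deposited for each region the mean methylation of each group in percent, the difference of the means (a signed score in percentage points), a count of CpG sites, Mann-Whitney and 2-dimensional Kolmogorov-Smirnov p-values and a q-value. How q was derived is not given.

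The deposited difference matched the 2 group columns, M07e_3883 minus M07e_WT, within 0.01 points at all 12 member regions. Regions were joined to RefSeq gene spans (GRCh38.p14), and the join, the call rule and the Benjamini-Hochberg adjustment were tested on simulated data. With 1 mean per group no test between libraries could be fitted, so regions were counted and described. Named were all 8 members with every region, and in each other list up to 3 genes with the largest called difference. With 2 means per region no likeness to other genes was measured. The members and lists were chosen with earlier results of these data known. Alternatives covered the thresholds, the adjustment, the window, the number of sites and the gene assignment. Python 3.11.15, pandas 2.3.3 and numpy 2.4.6 were used.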

Additional observations from a re-analysis of the deposited data

How the results depend on the processing

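The 2 calls, at SFRP1 and SFRP2, were the same with a difference of at least 40 points, a q under 0.05, a window of 50 kb, at least 5 sites, merging of called regions within 1000 bases, and without regions nearer to another gene. With a difference of at least 10 points DKK1 joined them (3 called), where 9.06% of all regions passed the q threshold at any difference. With a q under 0.001 no member region or gene was called (0), and with the Kolmogorov-Smirnov p of the authors adjusted by Benjamini-Hochberg over all regions, at 0.01, none was either (0). The adjusted p was 0.0303 at SFRP1, 0.0148 at SFRP2 and 0.0224 at DKK1, so that at 0.05, an alternative chosen after seeing the data, both calls passed. With at least 10 sites, also chosen after seeing the data, none remained (0), because the called regions have 7 and 8 sites. With the gene span only or a window of 2 kb, 1 region was called, at SFRP1 (1 gene for the span), because the SFRP2 region lies outside. The number of regions ranged from 8 for the span to 16 at 50 kb. Apart from the 9.06% above, shares of all regions called under the alternative thresholds, adjustment and numbers of sites are not given here.

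The median difference of 4.71 points became 3.17 as a median of gene medians, 5.16 as a mean weighted by sites, 14.3 within the spans and -0.43 at 50 kb, where the 4 added regions change its sign. It stayed at 4.71 points without regions with a mean of exactly 0 in either group. Of the other WNT pathway genes 32 of 82 measured had a called region, beside 14.9% of all genes with a region in reach. At a difference of at least 40 points 20 did, and the share over all genes at that setting is not given here. Regions per gene were not matched between these genes and all genes. No paired analysis was possible because the table has 1 mean per group. For the same reason no replicate could be left out and no coverage minimum set.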
